A study of Mus musculus with 12 samples.

Results

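The genes described here are 10 targets of beta-catenin that mark the hepatocytes around the central vein of the mouse liver: Glul, Axin2, Lgr5, Tbx3, Nkd1, Rnf43, Znrf3, Notum, Lect2 and Sp5. They were chosen on their levels in tumors against control livers in these same libraries, after several tumors of both genotypes had been seen to lie above the controls. Every level of a tumor beside a control is therefore a description here and carries no test. The 10 genes are among 26301 genes counted, and all 10 were among the 13882 that passed a filter on low counts. Sp5 did so on few reads, with 2 to 140 counts per library.

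The study asked how loss of the repressors E2f7 and E2f8, alone or with the tumor suppressor Rb1, changes tumor growth in the mouse liver. Messenger RNA was sequenced from 4 wild-type control livers, 4 E2f7/8 DKO tumors (double knockout) and 4 E2f7/8/Rb1 TKO tumors (triple knockout), each a bulk piece of tissue from ageing mice that had reached a humane endpoint. The labels give the age of all of them as adult and count each liver or tumor separately. The study describes deletion by Cre recombinase under the albumin promoter, which it calls specific to hepatocytes. Other cells of a tumor may therefore keep the genes intact. Its methods give conditional alleles of Rb1, and mice bred into the FVB strain to generation 5. Total counts ran from 9165812 in control 2 to 16424973 in the library labelled DKO 1.

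Wnt proteins and R-spondins made by endothelial cells of the central vein keep beta-catenin active in the hepatocytes next to it, and the genes it turns on there form the pericentral programme, with glutamine synthesis as its best known product. Hepatocytes near the portal vein lack that signal and carry out urea synthesis and gluconeogenesis instead. Many beta-catenin targets act back on the pathway: Axin2, Nkd1, Notum, Rnf43 and Znrf3 each restrain it, and Lgr5 is a receptor that strengthens it.

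The deleted genes were read first, since they check the labels. Levels are given as CPM, counts scaled to library size with TMM factors, unless another scale is named. Rb1 read 10.7, 6.52, 8.27 and 7.69 CPM in control livers 1 to 4, 11.3, 8.38, 7.99 and 8.37 CPM in the libraries labelled DKO 1 to 4, and 4.22, 5.47, 4.91 and 3.21 CPM in those labelled TKO 1 to 4. All 4 TKO libraries lay below the lowest control in Rb1 and below every DKO library. E2f8 read 4.52, 8.97, 5.96 and 5.49 CPM in control livers 1 to 4, 7.59, 45.6, 11.4 and 17.3 CPM in the libraries labelled DKO 1 to 4, and 26.0, 13.8, 52.2 and 12.3 CPM in those labelled TKO 1 to 4, and E2f7 stayed between 0.236 and 1.84 CPM in all 12 libraries. Neither repressor lay below the controls in all libraries of a tumor genotype, E2f8 was above its highest control in 7 of the 8 tumor libraries, and the counts cover whole genes, so the part that was deleted cannot be read from them. The tumors are for that reason called libraries labelled DKO or TKO.

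Some libraries stood apart over all genes. On the first principal component of log2 CPM, which held 32.8% of the variance, the library labelled TKO 3 lay at -45.4, inside the controls' span of -63.4 to -16.9, while the other 7 tumors lay between 11.5 and 47.2. On the next component, with 17.2% of the variance, the libraries labelled TKO 4 and DKO 4 were the highest, at 55.6 and 36.0, against -3.69 to 15.8 in the controls. At its other end lay TKO 2 at -49.7, TKO 1 at -25.8, DKO 1 at -23.4 and TKO 3 at -14.0.

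The tumors lay on both sides of the control livers. In the libraries labelled DKO 2, DKO 4 and TKO 4 all 10 targets lay above the highest of the 4 controls, and in the library labelled TKO 1 all 10 lay below the lowest. The levels chose the genes, so nothing is read from these counts, and the shares over all 13882 tested genes are given beside them. Above the highest control lay 0 targets in the library labelled DKO 1 (28.1% of tested genes), 10 in DKO 2 (29.8%), 0 in DKO 3 (26.2%) and 10 in DKO 4 (28.3%). In the libraries labelled TKO 1 and TKO 2 there were 0 such targets (26.6% and 28.6% of tested genes), in TKO 3 there were 3, Axin2, Tbx3 and Nkd1 (21.5%), and in TKO 4 there were 10 (26.9%). With 1 control left out these counts stayed the same, except that DKO 3 had 1 without control 1 and TKO 2 had 1 without control 4.

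Below the lowest control lay 8 targets in the library labelled DKO 1 (26% of tested genes), 0 in DKO 2 (26.6%), 6 in DKO 3 (24%) and 0 in DKO 4 (25.3%). The matching counts were 10 in the library labelled TKO 1 (24.1%), 9 in TKO 2 (24.9%), 2 in TKO 3 (19.8%) and 0 in TKO 4 (23.7%). For Sp5 the place of TKO 1 and TKO 2 below the controls rests on 2 and 3 reads against 3 in control 4. Only 2 of the 8 tumors, DKO 3 and TKO 3, kept 4 or 5 targets inside the span of the controls. The library labelled DKO 1 kept 2 there and the library labelled TKO 2 kept 1. In bulk tissue, fewer cells of a type and less RNA per cell cannot be told apart, so these counts do not say whether a tumor holds fewer cells with the programme or cells with less of it.

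**Figure D1:**
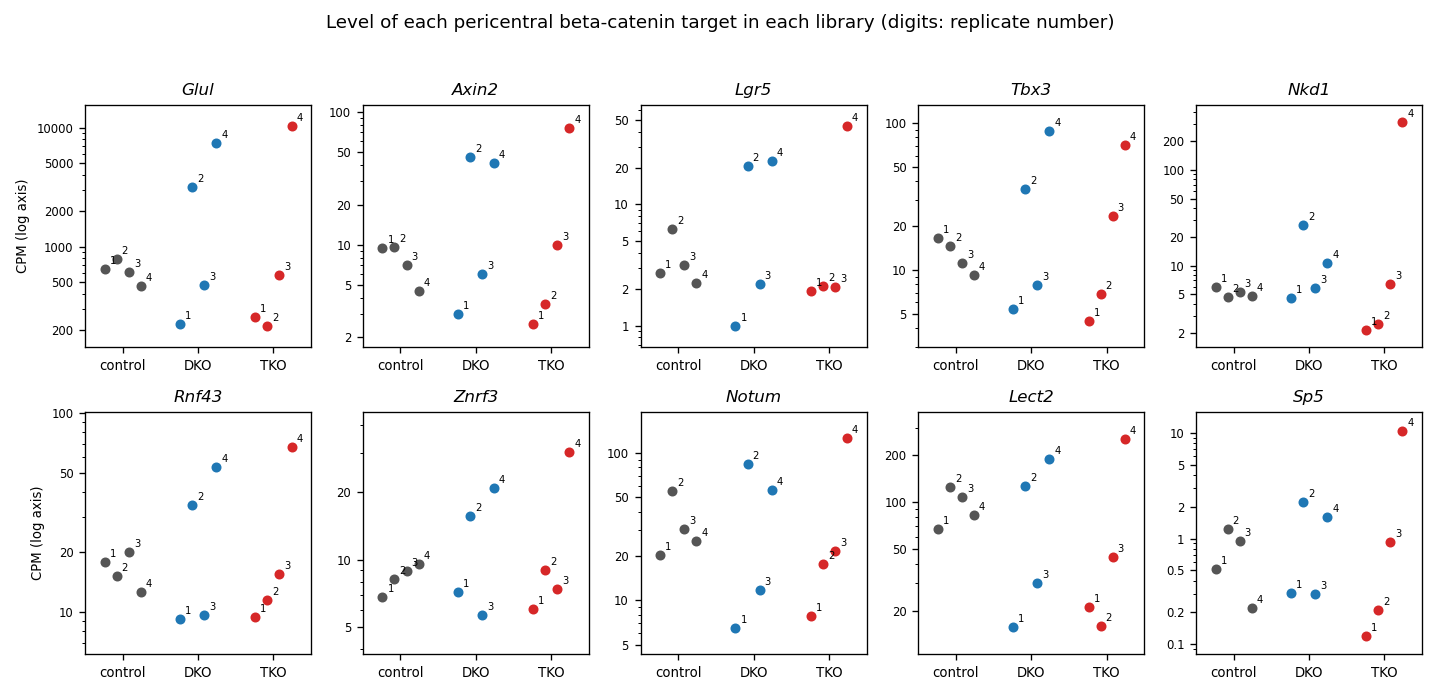
Each panel shows 1 target, with its level in CPM on a log axis for the 4 control livers (grey), the libraries labelled DKO (blue) and those labelled TKO (red); the digit beside a point is the replicate number. In every panel DKO 2, DKO 4 and TKO 4 are the 3 highest points, as for Glul at 3138, 7472 and 10331 CPM.

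Glul encodes glutamine synthetase, which removes ammonia by joining it to glutamate. Glul (Entrez 14645, chr1:155747074-155756853 of the mm9 build, plus strand) read 653, 781, 607 and 463 CPM in control livers 1 to 4, 223, 3138, 473 and 7472 CPM in the libraries labelled DKO 1 to 4, and 256, 213, 574 and 10331 CPM in those labelled TKO 1 to 4. The library labelled TKO 4 was highest, DKO 4 next and DKO 2 after it, at 16.5, 11.9 and 5.01 times the control mean. DKO 1, TKO 1 and TKO 2 lay below every control, at 0.357, 0.409 and 0.341 times the control mean, and DKO 3 and TKO 3 lay within the controls. Both tumor groups overlapped the controls from both sides.

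Lect2 encodes a secreted hepatocyte protein that also acts on leukocytes. Lect2 (Entrez 16841, chr13:56643821-56649899, minus strand) read 66.9, 124, 108 and 82.4 CPM in control livers 1 to 4, 15.7, 127, 30.2 and 189 CPM in the libraries labelled DKO 1 to 4, and 21.2, 15.9, 44.3 and 253 CPM in those labelled TKO 1 to 4. DKO 2 was only just above control 2, so the high values of Lect2 were modest beside its low ones. The libraries labelled DKO 1 and TKO 2 stood at 0.165 and 0.167 times the control mean, and all 5 tumors other than DKO 2, DKO 4 and TKO 4 lay below the lowest control.

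Axin2 and Nkd1 restrain the pathway inside the cell, Axin2 as a scaffold of the complex that destroys beta-catenin and Nkd1 through Dishevelled. Axin2 (Entrez 12006, chr11:108781663-108812097, plus strand) read 9.42, 9.59, 7.05 and 4.47 CPM in control livers 1 to 4, 2.99, 45.8, 5.97 and 41.3 CPM in the libraries labelled DKO 1 to 4, and 2.53, 3.55, 9.97 and 75.0 CPM in those labelled TKO 1 to 4. Here DKO 2 was above DKO 4, TKO 4 was highest at 9.84 times the control mean, and TKO 3 lay just above the highest control. Nkd1 (Entrez 93960, chr8:91045243-91118786, plus strand) read 5.93, 4.67, 5.29 and 4.83 CPM in control livers 1 to 4, 4.60, 26.7, 5.80 and 10.7 CPM in the libraries labelled DKO 1 to 4, and 2.11, 2.49, 6.44 and 316 CPM in those labelled TKO 1 to 4. The library labelled TKO 4 stood alone in Nkd1, at 60.9 times the control mean, while DKO 2 reached 5.15 times and DKO 4 only 2.06 times. The controls lay close together in Nkd1 (5.18 ± 0.565 CPM, SD, n = 4), and TKO 1 and TKO 2 were below them by more than that spread.

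Notum, Rnf43 and Znrf3 restrain the pathway at the cell surface: Notum is a secreted enzyme that strips the lipid from Wnt proteins, and Rnf43 and Znrf3 are membrane ubiquitin ligases that remove Frizzled receptors. Notum (Entrez 77583, chr11:120515102-120522489, minus strand) read 20.2, 55.2, 30.6 and 25.5 CPM in control livers 1 to 4, 6.44, 83.9, 11.8 and 56.3 CPM in the libraries labelled DKO 1 to 4, and 7.84, 17.6, 21.6 and 127 CPM in those labelled TKO 1 to 4. DKO 4 was only just above control 2, the highest control, and DKO 1 and TKO 1 stood at 0.196 and 0.238 times the control mean. Rnf43 (Entrez 207742, chr11:87476224-87549041, plus strand) read 17.8, 15.2, 20.1 and 12.6 CPM in control livers 1 to 4, 9.20, 34.6, 9.70 and 53.5 CPM in the libraries labelled DKO 1 to 4, and 9.41, 11.4, 15.5 and 67.5 CPM in those labelled TKO 1 to 4. TKO 4, DKO 4 and DKO 2 were again the highest, DKO 1, DKO 3, TKO 1 and TKO 2 lay below the lowest control, and TKO 3 lay among the controls.

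Znrf3 had the smallest ratio of its highest to its lowest library among the 10 targets. Znrf3 (Entrez 407821, chr11:5176327-5344850, minus strand) read 6.82, 8.24, 8.95 and 9.59 CPM in control livers 1 to 4, 7.21, 15.7, 5.68 and 20.9 CPM in the libraries labelled DKO 1 to 4, and 6.03, 9.03, 7.44 and 30.4 CPM in those labelled TKO 1 to 4. TKO 4 reached 3.62 times the control mean, and the lowest tumor, DKO 3, was still at 0.676 times. Only DKO 3 and TKO 1 lay below the controls in Znrf3, while the related ligase Rnf43 had 4 tumors there.

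Lgr5 is a receptor for R-spondins and a marker of the hepatocytes that touch the central vein. Lgr5 (Entrez 14160, chr10:114887367-115024836, minus strand) read 2.74, 6.27, 3.19 and 2.27 CPM in control livers 1 to 4, 0.997, 20.7, 2.19 and 22.7 CPM in the libraries labelled DKO 1 to 4, and 1.93, 2.13, 2.07 and 44.1 CPM in those labelled TKO 1 to 4. Control 2 was the highest control, and DKO 2, DKO 4 and TKO 4 exceeded it by a factor of more than 3. All other tumors lay below the lowest control, though all 5 did so by less than the controls differed among themselves.

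Tbx3 and Sp5 are transcription factors, Tbx3 a T-box repressor and Sp5 a zinc-finger protein of the Sp family that is induced by Wnt signals in many tissues. Tbx3 (Entrez 21386, chr5:120120678-120134733, plus strand) read 16.5, 14.5, 11.2 and 9.23 CPM in control livers 1 to 4, 5.44, 35.8, 7.93 and 88.3 CPM in the libraries labelled DKO 1 to 4, and 4.46, 6.82, 23.4 and 71.1 CPM in those labelled TKO 1 to 4. It was the 1 target whose highest library was DKO 4 and not TKO 4, and the library labelled TKO 3 also stood above every control. Sp5 (Entrez 64406, chr2:70312980-70315786, plus strand) read 0.519, 1.23, 0.949 and 0.220 CPM in control livers 1 to 4, 0.307, 2.21, 0.296 and 1.59 CPM in the libraries labelled DKO 1 to 4, and 0.121, 0.213, 0.920 and 10.4 CPM in those labelled TKO 1 to 4. In counts, Sp5 had 7, 10, 14 and 3 reads in the controls, 4, 28, 5 and 27 in DKO 1 to 4 and 2, 3, 12 and 140 in TKO 1 to 4. Only TKO 4 rested on more than 28 reads, and the order among the low libraries cannot be read at this depth.

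TKO 4, DKO 2 and DKO 4 took the first 3 places for 10 of 10 targets, which restates how the genes were chosen, with TKO 4 first for 9 and DKO 4 first for Tbx3. DKO 4 was above DKO 2 for Glul, Lgr5, Tbx3, Rnf43, Znrf3 and Lect2, and below it for Axin2, Nkd1, Notum and Sp5. The distance from the controls differed by gene: TKO 4 stood at 60.9 times the control mean in Nkd1, 16.5 times in Glul, 14.3 times in Sp5 and 12.2 times in Lgr5, but at 2.65 times in Lect2. At the other end the lowest place went to TKO 1 for Axin2, Tbx3 and Nkd1, and to DKO 1 for Lgr5, Rnf43, Notum and Lect2. It went to TKO 2 for Glul and to DKO 3 for Znrf3, and for Sp5 it cannot be read at this depth.

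As a description of the groups, the mean log2 CPM of the libraries labelled DKO minus that of the controls was 1.03 for Glul, 0.89 for Axin2, 0.84 for Nkd1 and 0.77 for Lgr5, and it was -0.31 for Notum and -0.67 for Lect2. For the libraries labelled TKO the differences were 0.29 for Glul, 0.32 for Axin2, 0.99 for Nkd1, 0.41 for Lgr5, -0.30 for Notum and -1.07 for Lect2. The spread within each tumor group was larger than these differences: for Glul the SD of log2 CPM was 2.35 in DKO and 2.59 in TKO, against 0.31 in the controls (n = 4 each). Without the library labelled TKO 4 the TKO differences were -0.97 for Glul, -0.69 for Axin2, -0.65 for Nkd1 and -0.68 for Lgr5. Without DKO 4 the DKO difference was 0.17 for Glul, 0.13 for Lgr5 and -0.11 for Tbx3. It was 0.31 for Axin2 and 0.34 for Nkd1 without DKO 2, and -0.06 for Lect2 without DKO 1. Notum turned from below to above the controls when the lowest library of a genotype was left out, to 0.31 without DKO 1 and 0.24 without TKO 1. These differences are means of logs, and the log2 fold changes fitted by edgeR were not the same. The fit gave 2.18 for Glul in both genotypes and 3.97 for Nkd1 in TKO. Notum was above the controls in the fit, at 0.27 in DKO and 0.41 in TKO. The comparison of TKO with DKO below uses the fitted scale.

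Levels can be compared between genes when divided by exon length, as CPM per kilobase of exon. On that scale the controls held Glul at 188 ± 39.5, Lect2 at 99.4 ± 26.7 and Notum at 13.7 ± 6.42 (mean ± SD, n = 4). Rnf43 followed at 2.50 ± 0.492 and Tbx3 at 2.39 ± 0.606, which did not differ beyond their spread. Axin2 at 1.39 ± 0.437, Nkd1 at 1.16 ± 0.127 and Znrf3 at 1.06 ± 0.150 formed a further step with overlapping spreads, and Lgr5 at 0.352 ± 0.176 and Sp5 at 0.347 ± 0.213 were lowest and alike. In the library labelled TKO 4 the order was different: Glul stood at 3103 and Lect2 at 264 CPM per kilobase, and Nkd1 at 70.8 had passed Notum at 52.6. In the library labelled DKO 1 Glul was at 67.1, Lect2 at 16.4 and Notum at 2.67 CPM per kilobase.

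The 10 targets were also compared in TKO against DKO. The same tumor values chose the genes, through high libraries in both genotypes, so nothing is concluded from the number of targets called. For the same reason the adjusted p of a single target, here and in the next paragraph, is a description and carries no test. None passed in edgeR's quasi-likelihood test with Benjamini-Hochberg adjustment: 0 of 10 targets and 0 of 13882 genes (0%) had an adjusted p under 0.05. At an unadjusted p under 0.05 the counts were 0 of 10 targets and 1250 of all genes (9%). DESeq2 called 0 of the 9 targets to which it gave a p and 56 of 14070 genes (0.398%); it gave none for Nkd1. Glul differed by a log2 fold change of 0.01 (SE 1.22, edgeR adjusted p = 0.998) and Lgr5 by 0.10 (SE 1.09, edgeR adjusted p = 0.982). Both genotypes held libraries far above and below the controls, and the standard errors reflect that: a miss of the threshold here does not show equal levels.

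In edgeR's fit the widest gap between the genotypes was in Nkd1, with a log2 fold change of 2.78 for TKO over DKO (SE 1.33, edgeR adjusted p = 0.566). That gap rested on the library labelled TKO 4, since without TKO 4 the value was -1.69. Sp5 came next at 1.40 (SE 1.13, edgeR adjusted p = 0.727) and turned to -1.41 without TKO 4. For Glul, leaving out TKO 4 gave -3.02 and leaving out DKO 4 gave 1.15. The other 7 targets had log2 fold changes from -0.38 (Tbx3) to 0.13 (Notum), and all of them were below 0 without TKO 4, down to -2.50 for Lgr5 and -2.17 for Axin2. By mean log2 CPM the order was different. Nkd1 stood at 3.40 in TKO and 3.25 in DKO, a narrower gap than that of Glul, at 9.56 in TKO and 10.29 in DKO.

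The targets do not sit together in the genome. Chromosome 11 holds 4 of the 10, but far apart, with Znrf3 from base 5176327, Rnf43 from 87476224, Axin2 from 108781663 and Notum from 120515102 of mm9. The table of RefSeq promoters for the build GRCm38.p6 held 6 of the 10 targets with 7 promoters, and lacked Lgr5, Tbx3, Znrf3 and Notum. The 250 bases before each start were searched on both strands for CTTTGA, the core letters that TCF and LEF factors, the DNA-binding partners of beta-catenin, are known to bind, and for the longer CTTTGAT, which contains it. CTTTGA was present in 13.8% of all 32851 promoters in the table over the same window, and CTTTGAT in 3.21%. Among the targets, Sp5 held CTTTGA at 2 places and Lect2 at 1, with CTTTGAT at 1 place in each; Glul, Axin2, Nkd1 and both Rnf43 promoters held neither in this window. A match is a description of letters and not of binding. The windows with matches are shown because they belong to a transcription factor and a secreted product that were high in the same libraries, with the matched letters in capitals.
Sp5, chr2:70474673-70474922 of GRCm38.p6, plus strand: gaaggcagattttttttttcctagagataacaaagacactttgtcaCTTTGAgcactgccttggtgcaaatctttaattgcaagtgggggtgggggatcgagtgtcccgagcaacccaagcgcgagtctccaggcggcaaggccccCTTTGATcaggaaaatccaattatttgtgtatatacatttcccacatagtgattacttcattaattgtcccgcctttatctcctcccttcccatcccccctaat
Lect2, chr13:56548539-56548788 of GRCm38.p6, minus strand: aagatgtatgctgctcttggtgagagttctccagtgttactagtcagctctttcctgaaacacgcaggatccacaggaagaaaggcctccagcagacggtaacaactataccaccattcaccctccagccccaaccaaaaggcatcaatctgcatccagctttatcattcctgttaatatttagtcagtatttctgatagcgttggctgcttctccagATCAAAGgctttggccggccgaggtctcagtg
In Sp5 the match nearest the start began 104 bases before it, and in Lect2, where the letters lie on the opposite strand, 32 bases before it.

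The genes outside the 10 with the most similar profile were found by the root mean square distance between log2 CPM standardised over the 12 libraries and the mean standardised profile of the 10 targets. The 10 nearest were Gulo (0.210), Slc1a2 (0.242), Cib2 (0.247), Gstm2 (0.252), Abhd12 (0.263), Blvrb (0.282), Prdx3 (0.300), AW549542 (0.304), Dlat (0.304) and Lhpp (0.317), against a median distance of 1.32 over all 13882 genes. The median is given for scale only, since the 10 genes were picked as the nearest. The targets themselves lay between 0.192 (Glul) and 0.457 (Nkd1) from their own mean. Each target is part of that mean and was chosen on these levels, so nothing is read from their closeness. Gulo, which carries out the last step of vitamin C synthesis, read 643, 842, 609.8 and 669.7 CPM in control livers 1 to 4, 352, 1902, 512 and 2671 CPM in the libraries labelled DKO 1 to 4, and 418, 354, 502 and 3578 CPM in those labelled TKO 1 to 4. TKO 4, DKO 4 and DKO 2 were high in Gulo, in the order seen for Glul, and the other 5 tumors lay below the controls, DKO 1, TKO 2 and TKO 1 lowest. Cib2 ranged from 1.21 CPM in TKO 2 to 47.9 CPM in TKO 4, with the controls at 3.19 to 5.41 CPM. The 3 genes nearest to Glul alone were Gulo (0.136), Gstm2 (0.182) and Dyrk3 (0.234).

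Beyond the 10 targets, 26 other genes known from pericentral hepatocytes were followed, all of which passed the filter. In the library labelled TKO 4, 19 of the 26 lay above the highest control (26.9% of all tested genes) and 3 below the lowest (23.7%); in DKO 4 the counts were 19 (28.3%) and 5 (25.3%). In DKO 2, 9 of the 26 were above (29.8% of all tested genes) and 11 below (26.6%), although all 10 targets were above. In DKO 1, TKO 1 and TKO 2 none was above (28.1%, 26.6% and 28.6% of all tested genes) and 21, 24 and 21 were below (26%, 24.1% and 24.9%). In DKO 3 and TKO 3, 2 and 1 were above (26.2% and 21.5%) and 17 and 14 below (24% and 19.8%). The median log2 ratio of the 26 genes to the control mean was 1.19 in TKO 4, 0.88 in DKO 4 and -0.05 in DKO 2, where the 10 targets had 2.91, 1.51 and 1.55 and all tested genes lay between 0.00 and 0.03 in the 8 tumors.

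**Figure D2:**
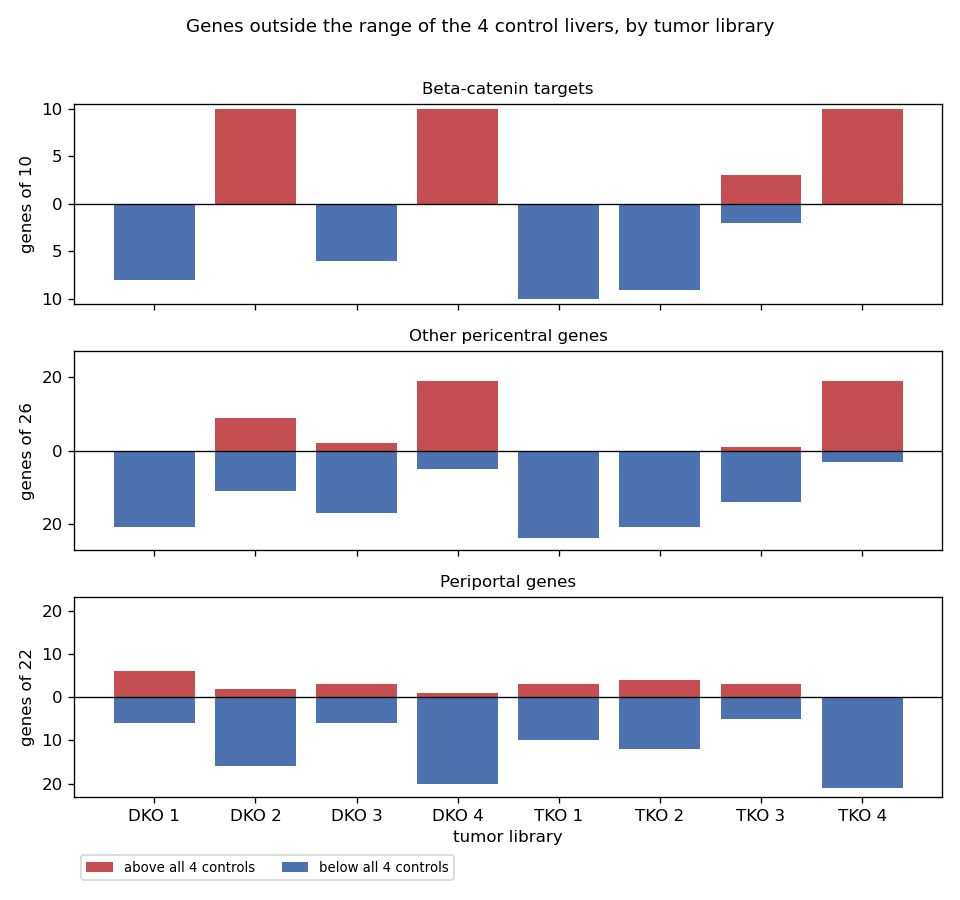
Bars count, for each tumor library, the genes above all 4 control livers (red, upward) and below all 4 (blue, downward) among the 10 beta-catenin targets, the 26 other pericentral genes and the 22 periportal genes. DKO 4 and TKO 4 have 19 of 26 other pericentral genes above and 20 and 21 of 22 periportal genes below, while DKO 2 has 9 and 11 of the other pericentral genes above and below.

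Oat was among the genes that parted DKO 2 from DKO 4 and TKO 4. Oat, which breaks down ornithine, read 851, 827, 1079.6 and 687 CPM in control livers 1 to 4, 134, 284, 389 and 5998 CPM in the libraries labelled DKO 1 to 4, and 95.1, 64.0, 698 and 6758 CPM in those labelled TKO 1 to 4. DKO 4 and TKO 4 were far above the controls in Oat, and DKO 2 lay below all of them. Rhbg, an ammonium transporter, read 10.8, 7.62, 7.25 and 9.15 CPM in control livers 1 to 4, 6.75, 81.7, 6.80 and 143 CPM in the libraries labelled DKO 1 to 4, and 6.39, 5.40, 6.98 and 276 CPM in those labelled TKO 1 to 4, and Slc1a2, a glutamate transporter, read 117, 110.0, 120.4 and 49.5 CPM in control livers 1 to 4, 46.3, 475, 63.7 and 426 CPM in the libraries labelled DKO 1 to 4, and 44.7, 32.1, 134 and 2889.6 CPM in those labelled TKO 1 to 4. In these transporters DKO 2 joined DKO 4 and TKO 4 above the controls, as it did for the 10 targets, and TKO 3 lay just above the controls in Slc1a2.

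Among pericentral enzymes of drug metabolism, Cyp1a2 read 366, 773, 834 and 703 CPM in control livers 1 to 4, 102, 773, 346 and 2681 CPM in the libraries labelled DKO 1 to 4, and 144, 135, 539 and 3979 CPM in those labelled TKO 1 to 4. Cyp2e1, the most abundant of the 26, read 7172, 11821, 9992 and 6877 CPM in control livers 1 to 4, 547, 5167, 2604 and 10839.7 CPM in the libraries labelled DKO 1 to 4, and 1454, 1209, 6929 and 12003 CPM in those labelled TKO 1 to 4. DKO 4 and TKO 4 were high in Cyp1a2 and DKO 2 lay within the controls. In Cyp2e1 only TKO 4 passed the highest control, by less than the controls differed among themselves, and DKO 2 lay below all 4. Rnase4, a secreted ribonuclease, was above its highest control only in DKO 4 (3725 against 3567 CPM in control 1). Cyp2c54 lay below the lowest control in all 8 tumors, at 54.3 to 221 CPM in DKO and 46.1 to 281 in TKO against 345 to 657 in the controls.

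None of the 26 passed against the controls in either genotype by edgeR's test, where 345 of 13882 genes (2.49%) did: 336 (2.42%) for DKO and 12 (0.0864%) for TKO. At an unadjusted p under 0.05 there were 4 of 26 for DKO (24% of all genes) and 5 of 26 for TKO (16.3%). DESeq2, which called 1518 genes for DKO (10.4%), 507 for TKO (3.49%) and 1705 in either (11.7%), called 4 of the 26 in either genotype, all lower: Cyp2c29, Cyp2c50, Cyp2c54 and Nr1i3. The edgeR value nearest to the threshold was Cyp2c54 in DKO, at a log2 fold change of -2.003 (SE 0.57, adjusted p = 0.0737, lower in 4 of 4 libraries). Cyp2c54 was called by edgeR without the library labelled TKO 3 (adjusted p = 0.0472) and with the 8 libraries of the comparison alone (0.0338). With the replicate number as a block edgeR called Cyp2c54 (adjusted p = 0.0301), Cyp2c29 (0.0483) and Cyp2c50 (0.0476) in DKO. The counts over all genes moved with single libraries. The 336 genes called for DKO became 166, 0, 0 and 5 without controls 1, 2, 3 and 4, 5, 7 and 7 without DKO 1, DKO 2 and DKO 4, 96 without TKO 1 and 651 without TKO 3. The 12 genes called for TKO became 0 without control 1, 2 or 3, DKO 2 or TKO 2, 1 without control 4, DKO 4 or TKO 1, 2 without DKO 1 and 231 without TKO 3.

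Periportal genes were low where the 10 targets were high. Of 22 genes known from hepatocytes near the portal vein, 21 lay below the lowest control in the library labelled TKO 4 (23.7% of all tested genes), 20 in DKO 4 (25.3%) and 16 in DKO 2 (26.6%), with 0, 1 and 2 above the highest (26.9%, 28.3% and 29.8%). In DKO 1 and DKO 3, 6 and 6 were below (26% and 24% of all tested genes) and 6 and 3 above (28.1% and 26.2%). In TKO 1, TKO 2 and TKO 3, 10, 12 and 5 were below (24.1%, 24.9% and 19.8%) and 3, 4 and 3 above (26.6%, 28.6% and 21.5%). The median log2 ratio of the 22 genes to the control mean was -2.36 in DKO 4, -2.31 in TKO 4 and -0.91 in DKO 2, and lay between -0.43 and 0.03 in the other 5.

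Cyp2f2, a periportal cytochrome P450, read 827, 1061, 1575 and 1719 CPM in control livers 1 to 4, 2256, 437, 1739.8 and 79.3 CPM in the libraries labelled DKO 1 to 4, and 1555, 815, 1529 and 207 CPM in those labelled TKO 1 to 4. Its lowest libraries were DKO 4, TKO 4 and DKO 2, the 3 highest in Glul, and DKO 1, among the lowest in Glul, was the highest in Cyp2f2. The other libraries low in Glul were not high in Cyp2f2: TKO 2 lay just below the lowest control and TKO 1 within the controls. Hal, which begins histidine breakdown, read 114, 290.1, 259.9 and 225 CPM in control livers 1 to 4, 277, 104, 148 and 18.0 CPM in the libraries labelled DKO 1 to 4, and 85.7, 244, 333 and 26.3 CPM in those labelled TKO 1 to 4. DKO 4 and TKO 4 were far below the controls in Hal, DKO 2 and TKO 1 also lay below the lowest of them, and TKO 3 was highest.

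Alb and Cps1 were among the most abundant periportal genes. Cps1, the first enzyme of the urea cycle, was at 809.9 CPM in DKO 4 and 453 in TKO 4 against 2852 to 4727 in the controls. Alb, the plasma protein albumin, did not follow: it was above the highest control in DKO 1, DKO 2, DKO 3, TKO 1 and TKO 2, at 201652 CPM in DKO 2, and below the lowest only in TKO 4, at 37568 CPM. None of the 22 passed edgeR's test against the controls, with 3 of 22 for DKO (24% of all genes) and 2 of 22 for TKO (16.3%) at an unadjusted p under 0.05. DESeq2 called 2 in either genotype, Asl lower and Cdh1 higher. Cdh1, the adhesion protein E-cadherin, had a log2 fold change of 3.04 in DKO (SE 0.77, edgeR adjusted p = 0.0560, higher in 4 of 4 libraries). It was called by edgeR without TKO 3 (adjusted p = 0.0350) or TKO 4 (0.0319) and without the filter on low counts (0.0465). So it was with the 8 libraries of the comparison alone (edgeR adjusted p = 0.00365) and with the replicate number as a block (0.0307). Asl, a urea cycle enzyme, was called in DKO without DKO 3 (edgeR adjusted p = 0.0360).

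**Figure D3:**
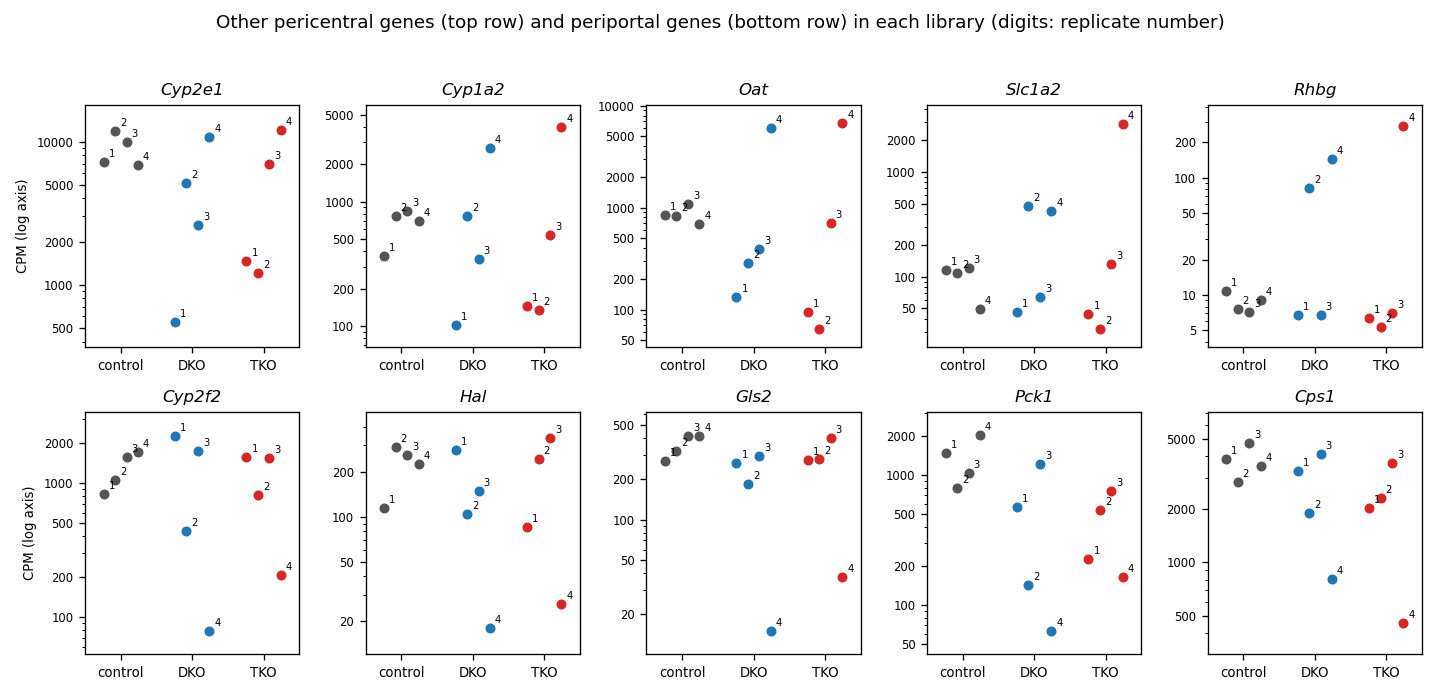
Each panel shows 1 gene in CPM on a log axis, with pericentral genes in the top row and periportal genes in the bottom row, controls in grey, DKO in blue, TKO in red and the replicate number beside each point. Oat has DKO 4 and TKO 4 at 5998 and 6758 CPM with DKO 2 at 284, and in the bottom row DKO 4 and TKO 4 are the lowest points of Cyp2f2, Hal and Gls2.

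Other known Wnt targets followed the 10 only in part, and some went the other way. The median log2 ratio of the 11 tested to the control mean was 0.20 in DKO 2, -0.34 in DKO 4 and -0.003 in TKO 4. Sox9 was at 2.30 and 2.61 CPM in DKO 4 and TKO 4 against 4.30 to 5.49 in the controls, though at 9.97 in DKO 2. Tnfrsf11b was at 1.83 and 2.76 CPM in DKO 4 and TKO 4 against 4.06 to 7.86 in the controls. Of 23 such genes 11 passed the filter, and none of them was called by edgeR or by DESeq2 against the controls, with 1 for DKO (24% of all genes) and 0 for TKO (16.3%) at an unadjusted p under 0.05. Tnfrsf19, a receptor of the TNF family, read 12.3, 7.99, 10.9 and 4.39 CPM in control livers 1 to 4, 6.21, 47.5, 12.5 and 48.7 CPM in the libraries labelled DKO 1 to 4, and 8.32, 5.61, 5.06 and 82.6 CPM in those labelled TKO 1 to 4. Tcf7, a TCF factor that is itself a target, read 6.82, 6.64, 5.08 and 3.88 CPM in control livers 1 to 4, 6.44, 17.6, 4.73 and 23.2 CPM in the libraries labelled DKO 1 to 4, and 7.42, 13.2, 4.37 and 19.8 CPM in those labelled TKO 1 to 4. Both were highest in TKO 4, DKO 4 and DKO 2, as the 10 targets were, but the match was partial in Tcf7, where TKO 2 lay well above the controls and TKO 1 just above them. DKO 3 lay just above the controls in Tnfrsf19.

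Lef1, Apcdd1 and Wif1, chosen after their values were seen, were highest in TKO 4; Lef1 and Apcdd1 did not pass the filter. Lef1 was at 7.09 CPM in TKO 4, 1.90 in DKO 2 and at most 0.307 elsewhere, Apcdd1 at 7.91 in TKO 4 and at most 0.445 elsewhere, and Wif1 at 11.4 in TKO 4 and at most 2.70 elsewhere. Ccnd1, which encodes cyclin D1, read 126, 48.1, 100.03 and 159 CPM in control livers 1 to 4, 73.2, 153, 154 and 155 CPM in the libraries labelled DKO 1 to 4, and 109.6, 46.8, 28.3 and 99.0 CPM in those labelled TKO 1 to 4. Myc read 5.41, 15.7, 7.25 and 11.7 CPM in control livers 1 to 4, 3.91, 3.95, 10.6 and 4.72 CPM in the libraries labelled DKO 1 to 4, and 4.34, 8.03, 7.82 and 7.39 CPM in those labelled TKO 1 to 4. Neither followed the 10 targets: no tumor lay above the highest control in either gene. Prox1, the remaining one of the 3 most abundant, was at 46.1 to 58.2 CPM in DKO and 47.5 to 74.0 in TKO against 32.2 to 74.1 in the controls.

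The signals that act on pericentral hepatocytes were low in the libraries where the targets were high, and in others too. Rspo3, the R-spondin of the central vein, read 5.12, 5.66, 3.32 and 3.22 CPM in control livers 1 to 4, 1.30, 1.74, 4.38 and 0.413 CPM in the libraries labelled DKO 1 to 4, and 1.39, 2.49, 4.45 and 1.34 CPM in those labelled TKO 1 to 4. Wnt2 read 2.60, 1.97, 2.30 and 4.03 CPM in control livers 1 to 4, 0.690, 1.58, 1.18 and 0.177 CPM in the libraries labelled DKO 1 to 4, and 1.33, 1.21, 3.84 and 0.597 CPM in those labelled TKO 1 to 4. Wnt9b, like Wnt2 a product of liver endothelium, read 2.22, 1.35, 1.36 and 1.90 CPM in control livers 1 to 4, 0.920, 1.19, 0.946 and 0.354 CPM in the libraries labelled DKO 1 to 4, and 1.03, 1.21, 2.22 and 0.597 CPM in those labelled TKO 1 to 4. DKO 1, DKO 2, DKO 4, TKO 1, TKO 2 and TKO 4 lay below the lowest control in each of them, as DKO 3 did in Wnt2 and Wnt9b. These values rest on few reads, such as 7, 3 and 6 of Rspo3, Wnt2 and Wnt9b in DKO 4 and 18, 8 and 8 in TKO 4, so the order among the low libraries cannot be read. Low values of these signals occurred both with the targets high (DKO 2, DKO 4, TKO 4) and with the targets low (DKO 1, TKO 1, TKO 2).

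Of 25 ligands and secretion factors 7 passed the filter, and none was called by edgeR or DESeq2 against the controls, with 2 of 7 for DKO (24% of all genes) and 1 of 7 for TKO (16.3%) at an unadjusted p under 0.05. The most abundant were Wls, which carries Wnt proteins to the cell surface, at 5.04 to 8.93 CPM in the controls, 4.66 to 12.1 in DKO and 6.57 to 10.3 in TKO, Wnt5b at 3.66 to 6.76, 1.34 to 5.91 and 1.81 to 3.07, and Wnt5a at 1.90 to 2.95, 3.61 to 5.30 and 2.27 to 7.61.

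Of 16 receptors 12 passed the filter, and edgeR called none against the controls, with 4 of 12 for DKO (24% of all genes) and 3 of 12 for TKO (16.3%) at an unadjusted p under 0.05. DESeq2 called Fzd8, lower in DKO, which edgeR called without control 1 (adjusted p = 0.0327). Lgr4, the R-spondin receptor related to Lgr5, read 60.9, 56.7, 61.4 and 63.4 CPM in control livers 1 to 4, 55.3, 55.8, 46.0 and 35.3 CPM in the libraries labelled DKO 1 to 4, and 42.8, 48.5, 46.6 and 52.7 CPM in those labelled TKO 1 to 4, below the lowest control in all 8 tumors. Where Lgr5 spanned 0.997 to 44.1 CPM, Lgr4 stayed within 35.3 to 63.4 CPM. The co-receptors Lrp5 and Lrp6 were at 46.6 to 87.0 and 47.8 to 76.6 CPM in the controls, 57.6 to 144 and 47.6 to 73.3 in DKO and 72.6 to 160.4 and 44.8 to 58.3 in TKO.

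Of 10 further inhibitors that act outside the cell or at its surface, 5 passed the filter, and neither tool called one against the controls (at an unadjusted p under 0.05, 1 for DKO, against 24% of all genes, and 0 for TKO, against 16.3%). Kremen1, a Dickkopf receptor, was at 10.012 to 12.1 CPM in the controls, 7.67 to 14.9 in DKO and 7.90 to 15.1 in TKO. Sfrp2, which binds Wnt proteins, ran from 0 to 10.7 CPM in the controls and reached 21.2 in TKO 4, and Frzb reached 5.74 in DKO 3.

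Inside the cell, beta-catenin's own gene was highest in the libraries where its targets were highest. Ctnnb1 read 235, 218, 250.1 and 247 CPM in control livers 1 to 4, 301, 407, 289.7 and 358 CPM in the libraries labelled DKO 1 to 4, and 265, 294, 247 and 524 CPM in those labelled TKO 1 to 4. TKO 4, DKO 2 and DKO 4 came first, as they did for the 10 targets, and every tumor but TKO 3 lay above the highest control. The log2 fold change of Ctnnb1 was 0.51 in DKO (SE 0.23, edgeR adjusted p = 0.202) and 0.48 in TKO (SE 0.23, edgeR adjusted p = 0.326).

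The partners of Axin2 in the destruction complex showed no such order. Apc read 28.0, 17.9, 26.4 and 30.0 CPM in control livers 1 to 4, 30.2, 26.7, 22.9 and 26.5 CPM in the libraries labelled DKO 1 to 4, and 25.6, 27.5, 22.7 and 21.0 CPM in those labelled TKO 1 to 4. Axin1, the constitutive relative of Axin2, read 26.1, 30.0, 29.9 and 26.3 CPM in control livers 1 to 4, 30.6, 28.0, 26.7 and 38.3 CPM in the libraries labelled DKO 1 to 4, and 31.6, 33.7, 31.8 and 28.7 CPM in those labelled TKO 1 to 4. TKO 4 was among the lower libraries in Apc, and in Axin1 the 12 libraries stayed within 26.1 to 38.3 CPM while Axin2 spanned 2.53 to 75.0. Csnk1a1 and Tnks2, a kinase of the complex and an enzyme that marks axins for removal, were at 81.2 to 101 and 65.5 to 73.4 CPM in the controls, 71.3 to 80.0 and 66.9 to 86.5 in DKO and 71.3 to 86.8 and 61.4 to 83.5 in TKO. All 27 genes of signal transduction passed the filter and neither tool called one, with 4 for DKO (24% of all genes) and 2 for TKO (16.3%) at an unadjusted p under 0.05.

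Markers of cell types were summed per library to set beside the targets, and their part in the levels of the targets was not tested. The 9 hepatocyte markers, led by Alb, summed to 112238, 172853, 166768 and 146476 CPM in the controls, 414969, 270060, 165880 and 161669 in DKO 1 to 4 and 219667, 298162, 121454 and 65421 in TKO 1 to 4. TKO 4 was lowest and DKO 1 highest. Tf and Serpina1c, the other abundant markers, were at 33656 and 2239.8 CPM in DKO 4 and 15616 and 1946 in TKO 4, against 22499.6 to 33548 and 7974 to 10858 in the controls. The list did not move as 1. Hnf4a was at 837 CPM in DKO 4, above the controls at 553 to 717, and at 541 in TKO 4. Ttr in TKO 4, at 3104 CPM, lay within the controls at 2229 to 6423. The median log2 ratio of the 9 markers to the control mean was -0.07 in DKO 4, 0.17 in DKO 2 and -0.84 in TKO 4.

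The 7 macrophage markers, led by Clec4f, summed to 531, 199, 239.8 and 509.8 CPM in the controls, 190.4, 168, 439.6 and 63.3 in DKO 1 to 4 and 162, 351, 585 and 132 in TKO 1 to 4, so that DKO 4 and TKO 4 were the lowest. Clec4f, found on the liver's resident macrophages, was at 5.84 CPM in DKO 4 and 28.3 in TKO 4 against 68.6 to 193 in the controls, with Cd5l and Csf1r next in abundance. Cd68, another of the 7, went the other way, at 25.2 CPM in DKO 4 and 23.2 in TKO 4 against 7.99 to 17.2 in the controls. The 6 markers of central vein endothelium, led by Thbd, summed to 24.8, 17.8, 12.6 and 23.6 CPM in the controls, 13.5, 13.4, 16.4 and 28.0 in DKO and 15.2, 14.8, 23.9 and 15.2 in TKO. Rspo3, Wnt2 and Wnt9b are 3 of these 6, and Thbd and Kit were not low in DKO 4, at 7.72 and 7.78 CPM. The high sum of DKO 4 rested in part on Cdh13, at 11.6 CPM there and at most 2.42 in any other library.

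The 8 markers of sinusoidal endothelium, led by Kdr, Clec4g and Fcgr2b, summed to 151 to 231 CPM in the controls, 166, 196, 258 and 187 in DKO and 215, 228, 374 and 192 in TKO. Within this list DKO 4 held little Clec4g and Oit3 (2.06 and 1.24 CPM) and much Pecam1 and Cdh5 (69.5 and 61.4 CPM), which the controls held at 32.6 to 42.1, 10.8 to 18.1, 10.6 to 22.2 and 13.6 to 33.4 CPM. The 7 bile duct markers, with Spp1 the most abundant and Sox9 among the next, summed to 42.8 to 61.2 CPM in the controls, 76.6, 62.4, 123 and 33.0 in DKO and 67.5, 55.9, 56.5 and 48.9 in TKO. The 9 markers of stellate cells and fibroblasts, led by Dcn, Col3a1 and Col1a2, summed to 272 to 463 CPM in the controls, 252, 208, 605 and 177 in DKO and 234, 362, 441 and 341 in TKO. The 7 lymphocyte markers, led by Cd3e, Ms4a1 and Cd79a, summed to at most 17.0 CPM in any library.

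Proliferation markers had another order of libraries than the targets. The 4 markers Mki67, Top2a, Ccnb1 and Cdk1 summed to 11.5, 6.15, 6.78 and 15.8 CPM in the controls, 42.1, 76.7, 29.9 and 17.5 in DKO 1 to 4 and 47.8, 19.0, 9.51 and 33.2 in TKO 1 to 4. DKO 2, with high targets, was the highest, and DKO 1 and TKO 1, with low targets, came next, while DKO 4 lay near the controls. Mki67 rose in DKO (log2 fold change 2.89, SE 0.59, edgeR adjusted p = 0.0425, higher in 4 of 4 libraries) and was the 1 gene edgeR called among the lists of cell types and proliferation. The call was lost without any 1 of the 4 controls, DKO 1, DKO 2, DKO 4 or TKO 1 (adjusted p from 0.0517 without DKO 4 to 0.134 without control 2), with scaling by total counts (0.0528) and with a sex-linked covariate (0.0851, log2 fold change 2.24). All 12 libraries held Ddx3y at 47.9 CPM or more and Xist at 0.460 CPM or less, with Eif2s3y and Uty, also Y-linked, next in abundance. Kdm5d, another Y-linked gene, was at 2.15, 1.11 and 2.29 CPM in DKO 1, DKO 2 and TKO 1 against 9.59 to 16.5 in the controls.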

How the data were processed

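The values are counts per gene that the authors made from SOLiD reads of 40 bases of poly(A) RNA, mapped to mm9 with BWA and counted with featureCounts (versions not stated), and deposited unscaled. The 12 libraries (4 control livers, 4 labelled DKO, 4 labelled TKO) were fitted together in edgeR 4.0.16 (R 4.3.3) with TMM factors, filterByExpr (13882 of 26301 genes kept), the quasi-likelihood test and Benjamini-Hochberg adjustment over all tested genes, called under 0.05. DESeq2 1.42.0 was an alternative. Both were tested on simulated data: with 200 changed genes edgeR recovered 190 with 9 false calls, DESeq2 195 with 40. The share of true differences found in the tumor libraries, which differed widely within each genotype, was not tested. Log2 CPM used a prior count of 2.

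The 10 targets and the lists were chosen with earlier results of these data known. Lists were other pericentral genes, periportal genes, other Wnt targets, ligands, receptors, inhibitors outside the cell or at its surface, signal transduction, the deleted genes, and markers of hepatocytes, central vein and sinusoidal endothelium, bile duct, stellate cells and fibroblasts, macrophages, lymphocytes, proliferation and sex. Named were the 10 targets, the deleted genes, the 3 most abundant and up to 5 called genes per list, 16 further zonation and Wnt genes, the 10 genes nearest in profile to the targets and the 3 nearest to Glul; a few of these are not reported, and others were chosen after their values were seen. Exon lengths and positions came from GENCODE, promoters from RefSeq. Alternatives were DESeq2, its size factors, total counts, other filters, 8 libraries per fit, a replicate block, a sex-linked covariate, a smaller prior count and leaving out each library.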

Additional observations from a re-analysis of the deposited data

Results flagged for a closer look

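In 78 groups of 4 libraries (26 genes, log2 CPM), 5 had a library set apart by Dixon's 95% limit for 4 values. The limit applies to the gap to the nearest neighbour as a share of the range of the group. Chance alone gives about 1 in 20, but only for genes not chosen on these values. The targets were chosen on them, and the other genes were named with earlier results of these data known. No flag here carries a test. Lgr5 in the libraries labelled TKO had TKO 4 far above the other 3 (gap over range 0.97), as did Rhbg (0.936). Lgr5 is a target chosen on its levels in these same libraries, so its flag is a description and carries no test. Slc1a2 in the controls had control 4 low (0.899), Ccnd1 had DKO 1 low among the libraries labelled DKO (0.975) and Myc had TKO 1 low among those labelled TKO (0.863). The cause was not tested.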

How the results depend on the processing

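No target passed edgeR's or DESeq2's threshold in TKO against DKO under any of the 21 settings run (lowest adjusted p 0.317, Glul without TKO 4). The same tumor values chose the genes, so nothing is concluded from this. Filtering for 10 counts in every library dropped Sp5, and DESeq2 gave no p for Nkd1. Without TKO 4 the TKO difference from control in mean log2 CPM changed sign for every target but Notum and Lect2. On that scale these 2 were below the controls with and without TKO 4, while edgeR's fit to all libraries put Notum at 0.41.

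With DESeq2, 1518 genes were called in DKO against control, 507 in TKO against control and 56 in TKO against DKO, with 4 pericentral genes, 2 periportal genes and 1 receptor; Glul was at -0.000618. Total counts alone gave 59 genes in DKO, turned Axin2 to 0.19, Rnf43 to 0.15 and Lect2 to 0.11 in TKO against DKO, and put 1 target of DKO 3 above the controls. Without the filter on low counts 22 genes were called in TKO and 1 periportal gene (Cdh1). The 8 libraries of a comparison alone gave 759 genes in DKO, 1 pericentral (Cyp2c54) and 1 periportal gene (Cdh1).

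The replicate block gave 509 genes in DKO and 1 in TKO, 3 pericentral genes (Cyp2c29, Cyp2c50, Cyp2c54) and 1 periportal gene (Cdh1), and turned Glul to -0.58, Lgr5 to -0.22 and Znrf3 to -0.014; it changed no other call among the results counted here. Libraries with the same number correlated from -0.174 to 0.370 over 12 pairs and 6 of 12 correlated best with their own number, so not every pair varied together, and the libraries were taken to share only a number. All 12 libraries held Ddx3y at 47.9 CPM or more and Xist at 0.460 CPM or less. The sex-linked covariate therefore did not contrast male with female mice. The covariate left 6 genes in DKO and 5 in TKO and turned Glul to -1.05, Lgr5 to -0.65, Znrf3 to -0.17 and Notum to -0.45. The cause of these changes was not tested.

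Leaving out 1 library at a time gave 0 to 651 genes in DKO, 0 to 231 in TKO, 0 to 1 pericentral, periportal and receptor genes, and 0 to 1 targets above the controls in DKO 3 and TKO 2. In TKO against DKO the targets ranged from -3.02 to 1.15 (Glul), -2.17 to 0.43 (Axin2), -2.50 to 0.66 (Lgr5), -1.58 to 0.69 (Tbx3), -1.69 to 3.53 (Nkd1), -1.14 to 0.54 (Rnf43), -0.72 to 0.48 (Znrf3), -1.33 to 0.80 (Notum), -1.74 to 0.53 (Lect2) and -1.41 to 1.95 (Sp5), each lowest without TKO 4. Depth limits Sp5, which had 2 to 140 counts, and Rspo3, Wnt2 and Wnt9b, with 7, 3 and 6 counts in DKO 4.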
